A study of Arabidopsis thaliana with 4 samples.

Results

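The genes described here are the pectin synthesis and modification genes of Arabidopsis thaliana: every gene whose name in the deposited files starts, case ignored, with PME, PMEI, GAUT, GATL or PAE followed by a digit. Of 24252 genes listed in the files, 87 carried such a name. Of these, 69 averaged 0.5 FPKM or more across the 4 libraries and were used, and 18 lay below that limit. FPKM scales the fragments of a gene by transcript length and by library size, so levels can be compared between genes. A gene missing from a file was counted as 0. Just inside the limit lay PME22, with a mean of 0.558 FPKM, and PME23, with 0.688 FPKM. Just outside it lay PME11, with 0.478 FPKM, and PME10, with 0.294 FPKM.

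The study measured mRNA of whole seedlings by RNA-seq in 2 fer-4 libraries and 2 wild-type (WT) libraries. The fer-4 seedlings are labelled FERONIA-/-, the gene FERONIA (FER) being that of a receptor kinase. The WT seedlings are labelled wild type. Per the labels, all seedlings were 7 days old and untreated, had the Col-0 background and grew on upright plates under days of 16 h light and 8 h dark. The labels do not say whether the replicates came from separate plates or seed lots, so the p-values cover only the spread among these 4 libraries, and that spread may be technical. The sources used here do not give the kind or position of the fer-4 lesion.

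Pectin is the gel of galacturonic acid polymers that fills the primary wall and the middle lamella between plant cells. Its main chain, homogalacturonan, is made in the Golgi by galacturonosyltransferases (GAUT, with the related GATL proteins) and leaves the cell with most of its acid groups covered by methyl groups. In the wall, pectin methylesterases (PME) take methyl groups off, pectin methylesterase inhibitors (PMEI) block them, and pectin acetylesterases (PAE) take off acetyl groups. Demethylated stretches bind calcium and stiffen the gel, or become open to cleavage by polygalacturonases. The outer domain of FERONIA is known to bind demethylated pectin, which links the receptor to the state of the wall.

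The names were checked against the RefSeq annotation of TAIR10.1, and they did not all match the pectin families. The names PME1, PAE1 and PAE2 each occurred for 2 identifiers. PAE1 (AT1G53850) and PAE2 (AT3G14290) are annotated as subunits of the 20S proteasome, the core of the protein-degrading complex, and were left out of the pectin classes. PME1 (AT4G12390) is annotated as a pectin methylesterase inhibitor and was counted as one. PMEI1 and PMEI2, the inhibitors named as such, lay below 0.5 FPKM. The 67 pectin genes used were therefore 23 synthesis genes (14 GAUT and 9 GATL), 43 esterases (32 PME and 11 PAE) and 1 inhibitor. The 2 proteasome genes did not pass the threshold. PAE1 (AT1G53850) stood at 53.9 and 59.6 FPKM in fer-4 against 74.0 and 68.8 FPKM in WT (adjusted p = 0.0536, limma).

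FER itself measured 60.6 and 62.1 FPKM in fer-4 and 89.0 and 91.9 FPKM in WT (log2 change -0.55 ± 0.08 SE, limma, adjusted p = 0.00648), so reads from the locus were still present in the mutant libraries. The depth, estimated from the lowest values in each file, was 19.9 to 21.6 M fragments per library, so 0.5 FPKM in a transcript of 1500 bases stood for 14.9 to 16.2 fragments. Among all genes, 141 reached 5 FPKM in both fer-4 libraries while WT replicate 1 held less than 5% of their fer-4 average, and 17 reached 5 FPKM in both WT libraries while each fer-4 library held less than 5% of their WT average. Of the 141, 67 were not listed in WT replicate 1 and 9 were not listed in WT replicate 2. More absences in WT replicate 1 follow from the rule, which looked at that WT library alone. The rule for the 17 asked both fer-4 libraries to be low, so 141 and 17 are not a like comparison. None of the 87 pectin names was among the 141 or the 17. Whether the 2 lines also differ outside FER was not tested. Of 5 leaf mesophyll markers none passed the threshold, and their summed level was 14071 and 10686 FPKM in fer-4 against 14499 and 16564 FPKM in WT. That sum is carried by RBCS1A, CA1 and RCA. LHCB1.1 went the other way, with 8.71 and 6.01 FPKM in fer-4 and 4.97 and 3.15 FPKM in WT, as did LHCB2.1, with 7.14 and 5.31 FPKM in fer-4 and 4.97 and 4.14 FPKM in WT. Root hair markers summed to 32.2 and 30.4 FPKM in fer-4 and 28.6 and 25.5 FPKM in WT, and 1 of 5, EXPA7, was higher. EXPA7 had the highest level of the 5, with 12.6 and 11.7 FPKM in fer-4 and 8.10 and 8.39 FPKM in WT. RSL4 was above WT in both fer-4 libraries without passing, and COBL9 and RHD6 overlapped. LRX1 went the other way, with 5.01 and 6.07 FPKM in fer-4 and 7.74 and 6.12 FPKM in WT. Of 4 endodermis markers none passed, with sums of 94.9 and 90.4 FPKM in fer-4 and 102 and 91.5 FPKM in WT. Of 6 pollen markers ANX1 alone averaged 0.5 FPKM or more, with 1.86 and 1.73 FPKM in fer-4 and 1.76 and 1.57 FPKM in WT, and it did not pass. LLG2 was at 0.245 and 0.266 FPKM in fer-4 and at 0 and 0.254 FPKM in WT. VGD1, VGDH1 and ANX2 were not listed in any library, and PPME1 was at 0 in both fer-4 libraries and at 0.0604 and 0 FPKM in WT. Among the seed storage markers CRA1, CRC and SESA3 were not listed, SESA2 and SESA4 lay below 0.5 FPKM, and SESA1 was higher, with 1.34 and 1.05 FPKM in fer-4 and listed in neither WT file (limma, adjusted p = 0.00750). The part of tissue make-up in the results below was not tested, and in whole seedlings fewer cells of a type and less RNA per cell cannot be told apart.

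Pectin genes past the threshold were mostly lower in the mutant. Each gene was tested as log2(FPKM + 1) with limma across all 20284 genes of at least 0.5 FPKM, at an adjusted p of 0.05. Of the 67 pectin genes, 15 fell in fer-4, 4 rose and 48 did not pass. That is 22.4% lower and 5.97% higher, beside 8.76% lower and 14.1% higher among all genes tested. The fer-4 and WT values did not overlap in 44 pectin genes (65.8% of all genes did not overlap), with fer-4 below in 32 (31.4% of all genes) and above in 12 (34.4% of all genes). The median log2 change was -0.15 over the pectin genes and 0.01 over all genes. The numbers depended on single libraries: 5 genes were lower and 2 higher without WT replicate 1, 5 and 0 without WT replicate 2, 9 and 6 without fer-4 replicate 1, and 9 and 2 without fer-4 replicate 2. Over all genes, those 4 settings gave 2.11%, 1.85%, 7.20% and 4.75% lower, and 5.89%, 5.34%, 12.4% and 9.31% higher. With quantile normalization the calls over all genes were 2384 higher and 2432 lower, beside 2869 and 1777 in the fit reported here, and the pectin genes had 3 higher and 15 lower.

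**Figure D1:**
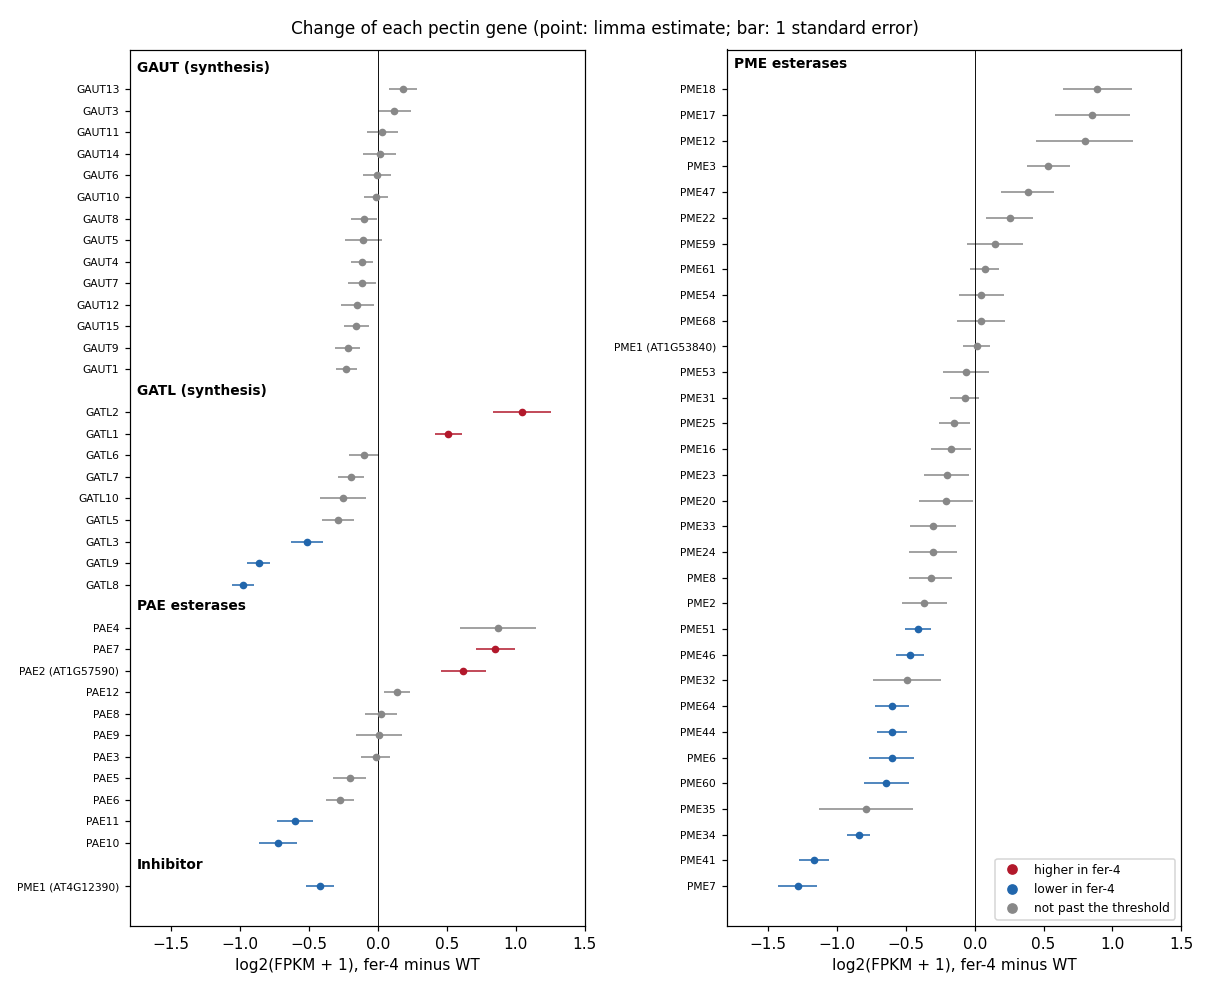
Log2 change in FPKM + 1 (fer-4 minus WT, x axis) of each of the 67 pectin genes, by family, with limma's standard error as the bar. The GAUT genes lie between -0.23 and 0.18 with none past the threshold, while the GATL, PME and PAE families spread to both sides of 0.

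The summed levels of the classes were compared by library. The 23 synthesis genes summed to 472 and 489 FPKM in fer-4 against 579 and 555 FPKM in WT. Both fer-4 libraries were thus below both WT libraries. Among the 23, GATL8 stood at 27.7 and 28.5 FPKM in fer-4 against 58.1 and 54.7 FPKM in WT. GATL9 stood at 35.5 and 38.4 FPKM in fer-4 against 68.1 and 68.1 FPKM in WT. Log2 changes were negative in 17 and positive in 6. The median synthesis gene stood at 14.0 and 15.8 FPKM in fer-4 and at 14.3 and 12.1 FPKM in WT. These medians overlapped between the genotypes. The 43 esterases summed to 1115 and 1287 FPKM in fer-4 against 1126 and 1006 FPKM in WT, so fer-4 replicate 1 lay between the WT libraries. Esterase transcript per synthesis transcript was 2.36 and 2.63 in fer-4 and 1.94 and 1.81 in WT. These sums are descriptions without a test, since 2 libraries against 2 cannot reach a p of 0.05 by exact permutation.

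A few abundant esterases made up much of the sum. The 3 esterases with the highest mean level, PME3, PME18 and PAE7, together made up 504 and 635 FPKM in fer-4 against 380 and 297 FPKM in WT. They were 45.2% and 49.3% of the esterase sum in fer-4 and 33.7% and 29.5% in WT. The other 40 esterases summed to 611 and 652 FPKM in fer-4 against 746 and 710 FPKM in WT. The cut at 3 was not planned, and each of the 3 was higher in both fer-4 libraries than in both WT libraries. PAE7 stood at 168 and 187 FPKM in fer-4 and at 111 and 86.2 FPKM in WT. With PAE7 counted among the others, their fer-4 and WT sums overlap. The median esterase stood at 7.55 and 10.2 FPKM in fer-4 and at 11.6 and 11.7 FPKM in WT. The replicates of a genotype also differed from each other: 32 of the 43 esterases were higher in fer-4 replicate 2 than in replicate 1, with a median log2 difference of 0.17, and 14 of 43 were higher in WT replicate 2 than in replicate 1, with a median of -0.13. Over all genes those medians were 0.01 and -0.03.

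**Figure D2:**
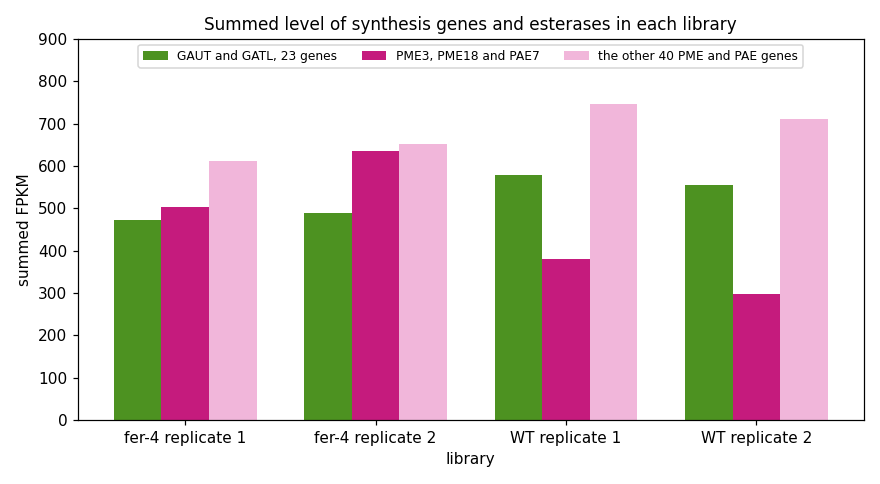
Summed FPKM (y axis, from 0) in each library of the 23 synthesis genes, of the 3 esterases with the highest mean level, and of the other 40 esterases; bars are single libraries, without error bars. The 3 highest esterases sum to 504 and 635 FPKM in fer-4 and 380 and 297 FPKM in WT. The other 40 are lower in both fer-4 libraries, by a cut at 3 that was not planned.

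Among the synthesis genes, the GAUT family showed no called change. The level of its members ran between 3.58 FPKM and 64.5 FPKM over the libraries, and all 14 log2 changes lay between -0.23 and 0.18, with a median of -0.11. None of the 14 passed the threshold with limma, beside 22.9% of all genes tested. An unadjusted p under 0.05 was reached by 7512 of all 20284 genes tested, and by 1 of the 14. That gene was GAUT1 (AT3G61130), the catalytic subunit of the best-known homogalacturonan-making complex. GAUT1 stood at 37.2 and 37.2 FPKM in fer-4 against 43.9 and 43.6 FPKM in WT (log2 change -0.23 ± 0.08 SE, limma, adjusted p = 0.0852, and 0.0530 to 0.249 over the alternatives). Its values did not overlap between the genotypes. GAUT7, which anchors GAUT1 in the Golgi, stood at 32.6 and 29.9 FPKM in fer-4 against 36.3 and 31.6 FPKM in WT, and the groups overlapped.

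GAUT4, the GAUT gene with the highest mean level, measured 59.98 and 57.6 FPKM in fer-4 and 64.5 and 62.8 FPKM in WT. GAUT8, also called QUASIMODO1, is needed for cell adhesion and normal homogalacturonan content. It measured 47.2 and 52.8 FPKM in fer-4 and 55.5 and 51.9 FPKM in WT, with overlapping groups. GAUT12, also called IRREGULAR XYLEM8, acts in the xylan of secondary walls and had the lowest level, with 3.58 and 3.63 FPKM in fer-4 against 4.03 and 4.19 FPKM in WT. GAUT13 and GAUT14, known for their role in pollen tube walls, measured 13.1 and 14.8 FPKM and 11.9 and 12.7 FPKM in fer-4, and 12.4 and 11.9 FPKM and 13.5 and 11.01 FPKM in WT. GAUT2 lay below the limit, with 0.0844 and 0.0606 FPKM in fer-4 and 0 and 0.0292 FPKM in WT. GAUT3, GAUT4, GAUT8, GAUT10, GAUT12 and GAUT15 share their file locus with a second gene or have an annotated gene across them. Their values are uncertain for that reason, since the strand setting of the quantification was not given in the sources used here.

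The GATL family moved in both directions: 3 of its 9 tested members fell and 2 rose (33.3% and 22.2%, beside 8.76% lower and 14.1% higher among all genes). Leaving out WT replicate 1, or WT replicate 2, gave 2 lower and 0 higher, without fer-4 replicate 1 the fit gave 3 lower and 2 higher, and without fer-4 replicate 2 it gave 2 and 1. GATL8 (AT1G24170) and GATL9 (AT1G70090), both glycosyltransferases of family 8, were the most abundant members in WT and fell together. GATL8 stood at 27.7 and 28.5 FPKM in fer-4 against 58.1 and 54.7 FPKM in WT, a fer-4 mean of 0.498 times the WT mean (log2 change -0.98 ± 0.08 SE, limma, adjusted p = 0.00101). GATL9 stood at 35.5 and 38.4 FPKM in fer-4 against 68.1 and 68.1 FPKM in WT (-0.87 ± 0.08, adjusted p = 0.00164). In both genes the fer-4 and WT libraries were far apart, and both passed the threshold under all 12 alternatives. Their coding sequences were 81.4% identical. The sources used here do not say how reads that fit several genes were handled, so the values of such close relatives are uncertain.

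The 250 bases upstream of the annotated starts of this pair are shown because the genes moved together. They were read from the RefSeq genome TAIR10.1, at chr1:8559067-8559316 on the minus strand for GATL8 and chr1:26400444-26400693 on the plus strand for GATL9. They are written 5′ to 3′ along the gene, and the capitals mark a G-box at position -81, where -1 is the base before the start. The G-box, CACGTG, is a known site of light and abscisic acid signalling factors.
GATL8: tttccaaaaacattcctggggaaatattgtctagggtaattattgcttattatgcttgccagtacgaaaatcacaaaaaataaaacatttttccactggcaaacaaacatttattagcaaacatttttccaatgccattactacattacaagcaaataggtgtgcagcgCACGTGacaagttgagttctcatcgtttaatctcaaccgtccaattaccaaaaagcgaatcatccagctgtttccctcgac
GATL9: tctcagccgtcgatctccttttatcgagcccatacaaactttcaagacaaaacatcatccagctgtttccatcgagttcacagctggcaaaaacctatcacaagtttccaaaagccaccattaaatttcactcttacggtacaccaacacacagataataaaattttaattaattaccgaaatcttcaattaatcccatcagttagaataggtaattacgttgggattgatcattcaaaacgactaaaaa
Matches were sought on both strands for the G-box, for the W-box (TTGAC followed by C or T), a site of WRKY factors, for the GCC-box (GCCGCC), a site of ethylene response factors, and for the TATA box, taken here as TATAAA. No match overlapped another in the windows printed here, and the GATL9 window held none.

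GATL3 also fell, with 7.03 and 5.93 FPKM in fer-4 against 9.85 and 9.49 FPKM in WT (-0.52 ± 0.12, limma, adjusted p = 0.0280). GATL1 and GATL2 were the members that rose. GATL1 (AT1G19300), also called PARVUS, is known for the xylan of secondary walls. It stood at 15.6 and 17.2 FPKM in fer-4 against 11.6 and 10.9 FPKM in WT (0.51 ± 0.10, limma, adjusted p = 0.0169). GATL2 (AT3G50760), its nearest relative at 71.4% coding identity, stood at 5.23 and 8.30 FPKM in fer-4 against 2.48 and 2.91 FPKM in WT (1.05 ± 0.21, adjusted p = 0.0187). In both genes every fer-4 library was above every WT library, and the fer-4 libraries of GATL2 were spread widely. Of these calls GATL3 and GATL1 were lost without fer-4 replicate 2 (adjusted p = 0.113 and 0.0787), without WT replicate 1 (0.151 and 0.0848) or without WT replicate 2 (0.140 and 0.122). GATL2 did not pass without WT replicate 1 (0.127) or without WT replicate 2 (0.106). Over the alternatives the adjusted p ran between 0.0212 and 0.151 for GATL3, 0.0156 and 0.122 for GATL1, and 0.00607 and 0.127 for GATL2.

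The windows upstream of the 2 GATL genes that rose lie at chr1:6672778-6673027 on the minus strand for GATL1 and chr3:18867584-18867833 on the plus strand for GATL2 (TAIR10.1). Capitals mark a TATA box at -179 and a W-box at -7 in GATL1, and a TATA box at -87 in GATL2.
GATL1: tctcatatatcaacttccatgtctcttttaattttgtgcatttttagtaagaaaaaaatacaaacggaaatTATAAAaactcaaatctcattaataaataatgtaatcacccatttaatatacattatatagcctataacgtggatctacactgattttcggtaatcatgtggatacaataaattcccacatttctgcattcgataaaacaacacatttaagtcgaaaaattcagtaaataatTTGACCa
GATL2: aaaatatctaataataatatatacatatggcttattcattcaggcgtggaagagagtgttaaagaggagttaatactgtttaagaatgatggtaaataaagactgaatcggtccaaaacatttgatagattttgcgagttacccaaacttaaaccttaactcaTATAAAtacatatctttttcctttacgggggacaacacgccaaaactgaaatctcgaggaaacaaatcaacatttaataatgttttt
The 4 remaining tested GATL genes did not pass. GATL6, next to GATL9 and GATL8 in mean level, measured 28.5 and 28.0 FPKM in fer-4 and 27.5 and 33.3 FPKM in WT, and it overlaps another gene. GATL5, known for the pectin of seed coat mucilage, stood at 10.3 and 8.65 FPKM in fer-4 against 12.02 and 11.5 FPKM in WT (adjusted p = 0.129, limma). As a family the 9 GATL genes summed to 161 and 169 FPKM in fer-4 against 228 and 228 FPKM in WT, while the 14 GAUT genes summed to 312 and 321 FPKM in fer-4 against 352 and 327 FPKM in WT.

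**Figure D3:**
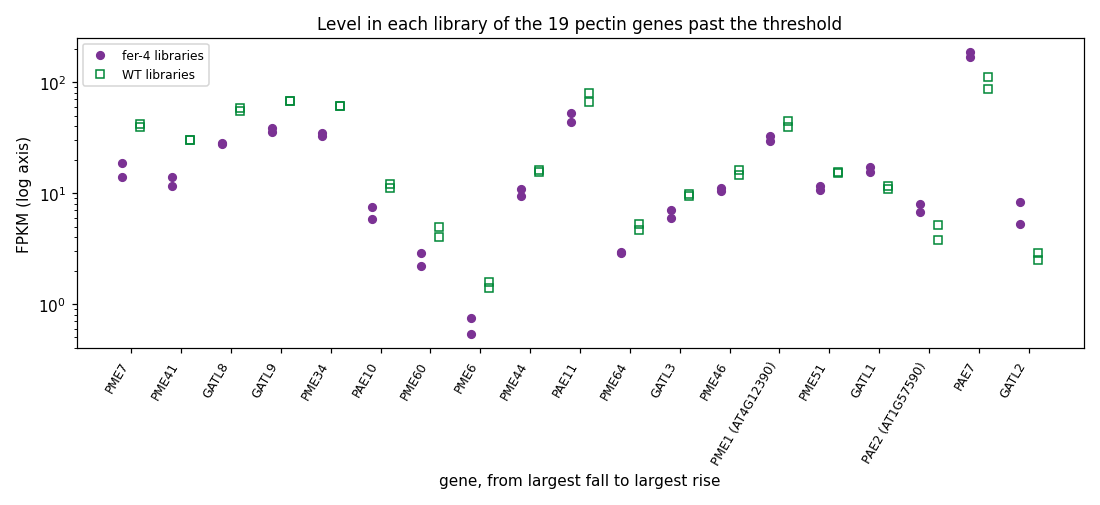
FPKM (log axis) in each library of the 19 pectin genes past the threshold, ordered by log2 change, with fer-4 libraries as filled circles and WT libraries as open squares. In the 15 genes on the left both fer-4 libraries lie below both WT libraries, and in the 4 on the right both lie above. A call on these same values nearly requires this.

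In the methylesterase family the called changes were all falls: 9 of the 32 tested PME genes fell and none rose (limma, adjusted p under 0.05). That is 28.1% lower, beside 8.76% lower and 14.1% higher among all genes. An unadjusted p under 0.05 was reached by 12 of the 32, beside 7512 of all 20284 genes tested. The median log2 change of the family was -0.21. Without WT replicate 1 the fit gave 3 lower and 1 higher, without WT replicate 2 it gave 3 and 0, without fer-4 replicate 1 it gave 5 and 2, and without fer-4 replicate 2 it gave 6 and 0. The lower shares of the family in those fits were 9.38%, 9.38%, 15.6% and 18.8%, beside 2.11%, 1.85%, 7.20% and 4.75% of all genes. The largest fall was in PME7 (AT1G02810), with 13.99 and 18.6 FPKM in fer-4 against 42.4 and 39.3 FPKM in WT (-1.29 ± 0.14 SE, limma, adjusted p = 0.00249). PME41 (AT4G02330), which has been linked to brassinosteroid signalling under chilling, stood at 11.7 and 14.0 FPKM in fer-4 against 29.9 and 30.1 FPKM in WT (-1.17 ± 0.11, adjusted p = 0.00146). The fer-4 means were 0.399 and 0.428 times the WT means, and the groups were far apart in both. PME7 and PME41 are each other's nearest relatives among the genes used, at 77.4% coding identity.

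The upstream window of PME7 is shown because this gene had the largest fall among the PME genes that passed. It lies at chr1:617811-618060 on the plus strand (TAIR10.1), and the capitals mark a TATA box at -58.
PME7: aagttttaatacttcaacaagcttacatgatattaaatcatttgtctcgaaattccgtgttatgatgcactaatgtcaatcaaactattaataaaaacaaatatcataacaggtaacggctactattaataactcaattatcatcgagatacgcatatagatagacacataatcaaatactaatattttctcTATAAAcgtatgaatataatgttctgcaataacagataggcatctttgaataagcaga
PME34 (AT3G49220), known for stomatal movement in heat, stood at 35.0 and 32.4 FPKM in fer-4 against 60.8 and 61.6 FPKM in WT (-0.84 ± 0.08, limma, adjusted p = 0.00176). PME7, PME41 and PME34, with GATL8 and GATL9, were the 5 of the 19 called genes that passed under all 12 alternatives.

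PME60 had the fourth largest fall on the log2(FPKM + 1) scale among the PME genes that passed, with 2.18 and 2.87 FPKM in fer-4 against 4.98 and 4.02 FPKM in WT (-0.64 ± 0.16, limma, adjusted p = 0.0387). PME35, with a larger change of -0.79, did not pass (adjusted p = 0.156). The PME60 values lay apart between the genotypes but at a low level. The other 5 PME genes that fell lie outside the naming rule, which takes 4 falls a family, and are named here after their values were seen. PME6, known for embryo and seed mucilage development, stood at 0.536 and 0.746 FPKM in fer-4 against 1.60 and 1.38 FPKM in WT. PME44 stood at 9.36 and 10.9 FPKM in fer-4 against 16.3 and 15.4 FPKM in WT, and an annotated gene overlaps it. PME46, PME51 and PME64 had log2 changes of -0.47, -0.41 and -0.60. PME46, for example, stood at 10.4 and 11.2 FPKM in fer-4 against 16.1 and 14.6 FPKM in WT. All 6 of these genes had non-overlapping groups, which a call on the same 4 values nearly requires. Of all genes tested, 65.8% did not overlap.

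Each of the 6 smaller PME falls lost its call in some of the fits with a library left out. Those fits leave 1 library in a genotype and also call fewer of all genes. Without WT replicate 1 the adjusted p was 0.193 for PME60, 0.176 for PME6, 0.103 for PME44, 0.142 for PME46, 0.133 for PME51 and 0.0820 for PME64 (limma). Without WT replicate 2 the values were 0.108, 0.136, 0.0897, 0.0950, 0.151 and 0.135 in the same order of genes. Without fer-4 replicate 1 PME60 (0.118), PME6 (0.107), PME46 (0.0801), PME51 (0.0506) and PME64 (0.0616) did not pass. Without fer-4 replicate 2 PME6 (0.0612), PME46 (0.0573), PME51 (0.114) and PME64 (0.0675) did not pass. The lowest adjusted p over the alternatives was between 0.00918 for PME44 and 0.0231 for PME6. The log2 change kept its sign in all of these fits.

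The PME genes with the highest levels were not among those that fell. PME3 (AT3G14310), a major methylesterase of vegetative tissues, stood at 198 and 209 FPKM in fer-4 against 163 and 120 FPKM in WT (0.53 ± 0.16, limma, adjusted p = 0.0583, and 0.0392 to 0.195 over the alternatives). PME18 (AT1G11580) stood at 138 and 239 FPKM in fer-4 against 105 and 90.2 FPKM in WT (0.89 ± 0.25, adjusted p = 0.0545, and 0.00441 to 0.261 over the alternatives). In both genes the fer-4 libraries were above the WT libraries, with PME18 set apart by its high fer-4 replicate 2. Neither passed in the fit reported here. PME3 passed without WT replicate 1 and in no other alternative. PME18 passed without fer-4 replicate 1 and with a replicate block, and in no other alternative. PME17, known to be induced by pathogens and chosen for its values, stood at 39.98 and 64.6 FPKM in fer-4 against 34.0 and 22.5 FPKM in WT (0.85 ± 0.27, adjusted p = 0.0725, and 0.0249 to 0.325 over the alternatives). It passed without fer-4 replicate 1 (adjusted p = 0.0249).

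PME68 (AT5G47500), which RefSeq lists as PME5 and which is known from the shoot meristem, measured 91.2 and 65.7 FPKM in fer-4 and 68.5 and 82.2 FPKM in WT, with overlapping groups. PME1 (AT1G53840) measured 52.6 and 59.3 FPKM in fer-4 and 57.4 and 53.2 FPKM in WT, also overlapping. PME2, its neighbour on chromosome 1, stood at 7.30 and 8.84 FPKM in fer-4 against 12.3 and 9.18 FPKM in WT and did not pass (adjusted p = 0.167). The threshold gene PME22 stood at 0.809 and 0.583 FPKM in fer-4 against 0.393 and 0.446 FPKM in WT. Many PME proteins carry an inhibitor-like domain ahead of the enzyme domain, which is cut off before release to the wall. Of the 28 tested PME genes with coding sequences of 1300 bases or more, 9 fell (32.1%, beside 8.76% of all genes). Of the 4 shorter ones none did (limma, with none at an unadjusted p under 0.05). With 4 genes the second count is too small to set against the first. The split is by coding length, which does not show whether a gene carries the inhibitor-like domain.

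Of the 11 pectin acetylesterases 2 rose and 2 fell (18.2% each), beside 14.1% higher and 8.76% lower among all genes. PAE7 (AT4G19410) was the most abundant member and rose, with 168 and 187 FPKM in fer-4 against 111 and 86.2 FPKM in WT (0.85 ± 0.14 SE, limma, adjusted p = 0.0102). PAE11 (AT5G45280), its nearest relative at 78.9% coding identity, fell, with 44.0 and 52.2 FPKM in fer-4 against 80.3 and 66.7 FPKM in WT (-0.60 ± 0.13, adjusted p = 0.0237). The groups did not overlap in either gene. PAE7 shares a locus in the files with a neighbour and overlaps it, so its value is uncertain. PAE7 did not pass without WT replicate 2 (0.0626; 0.00954 to 0.0626 over the alternatives). PAE11 did not pass without fer-4 replicate 1 (0.0758), WT replicate 1 (0.136) or WT replicate 2 (0.0681), with 0.0172 to 0.136 over the alternatives.

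PAE10 fell, with 7.55 and 5.83 FPKM in fer-4 against 11.1 and 12.2 FPKM in WT (-0.72 ± 0.14, limma, adjusted p = 0.0165). PAE2 (AT1G57590) rose, with 6.80 and 7.93 FPKM in fer-4 against 5.21 and 3.76 FPKM in WT (0.62 ± 0.16, adjusted p = 0.0445). The PAE2 call was the least stable of the 19 and was lost in 9 of the 12 alternatives, including each library left out: 0.0664 without fer-4 replicate 1, 0.168 without fer-4 replicate 2, 0.0655 without WT replicate 1 and 0.198 without WT replicate 2, with 0.0421 to 0.198 over the alternatives. PAE10 was lost without fer-4 replicate 2 (0.0525), WT replicate 1 (0.0914) and WT replicate 2 (0.131), with 0.0123 to 0.131 over the alternatives.

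PAE8 and PAE9, which have been shown to remove acetyl groups from pectin of the rosette and stem, did not pass. PAE8 measured 39.3 and 38.0 FPKM in fer-4 and 42.3 and 34.2 FPKM in WT. PAE9 measured 3.77 and 4.25 FPKM in fer-4 and 4.67 and 3.37 FPKM in WT. Both had overlapping groups. PAE4 stood at 2.82 and 5.83 FPKM in fer-4 against 1.89 and 1.71 FPKM in WT (0.87 ± 0.28, limma, adjusted p = 0.0724), but it shares a locus with PAE5 and the 2 cannot be told apart with certainty. PAE4 passed without fer-4 replicate 1 and with a replicate block, and in no other alternative.

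The single inhibitor above the limit, PME1 (AT4G12390), fell. It stood at 32.4 and 29.7 FPKM in fer-4 against 44.6 and 39.2 FPKM in WT (-0.42 ± 0.10 SE, limma, adjusted p = 0.0323), with groups that did not overlap. An annotated gene overlaps it. It did not pass without any 1 of the libraries: 0.0508 and 0.126 without fer-4 replicates 1 and 2, and 0.167 and 0.0877 without WT replicates 1 and 2, with 0.0235 to 0.167 over the alternatives. PMEI2 lay below the limit, with 0.0975 and 0.105 FPKM in fer-4 and 0.615 and 0.205 FPKM in WT, and PMEI1 with 0 and 0.0513 FPKM in fer-4 and 0.107 and 0 FPKM in WT.

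Close relatives were set side by side to see how the members vary among themselves. Of 678 pairs within a family, 21 had coding sequences at least 70% identical. In 6 of them both genes passed the threshold, 4 in the same direction and 2 in opposite directions. Of the pectin genes used 28.4% passed, beside 22.9% of all genes tested. Those are shares of single genes and not of pairs in which both passed. The number of pairs with both genes past the threshold is not given over all 678 pairs, so the count of 6 has no background here. Whether close relatives share a call more often than other pairs was not tested. GATL8 and GATL9, PME7 and PME41, PME51 and PME64 (76.8% identical), and GATL1 and GATL2 moved the same way. PAE7 and PAE11, and PAE10 and PAE2 (AT1G57590) (70.5% identical), moved in opposite ways. In 4 pairs 1 gene passed, and in 11 none did. The most similar pair with a called member was PME60 and PME59, 87.0% identical, in which PME60 fell and PME59 measured 1.51 and 1.75 FPKM in fer-4 and 1.83 and 0.998 FPKM in WT. The PME3 and PME2 pair (78.8% identical) had changes of 0.53 and -0.37 with neither past the threshold. The pairs share genes and are not independent.

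**Figure D4:**
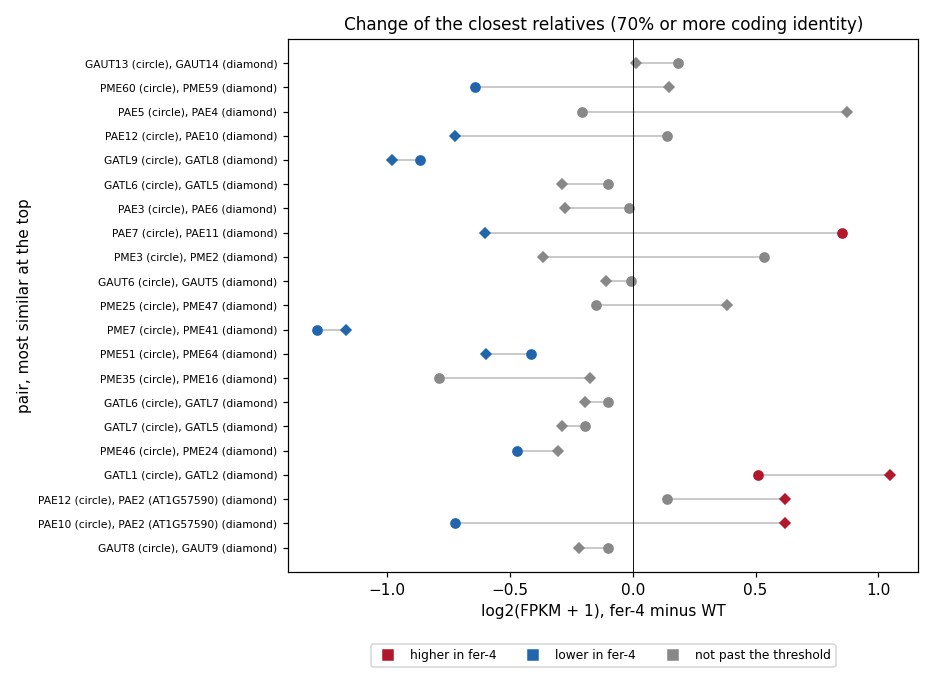
Log2 change in FPKM + 1 (fer-4 minus WT, x axis) of both genes in the 21 pairs with coding sequences at least 70% identical, the most similar at the top; a line joins the pair. PAE7 and PAE11 lie at 0.85 and -0.60, while GATL8 and GATL9 lie at -0.98 and -0.87.

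In 6 places pectin genes used here lie within 5000 bases of each other. Both genes passed the threshold in 0 of the 6 places, 1 gene passed in 3 and none in 3 (limma). Of the pectin genes used 28.4% passed, beside 22.9% of all genes tested, which are shares of single genes and not of pairs. PAE7 rose beside PAE8, whose log2 change was 0.02. PME46 fell beside PME47, which had a log2 change of 0.38, with 12 bases between the annotated genes. PME60 fell beside PME59. Whether neighbours differ from each other was not tested.

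The upstream windows were searched for the same motifs by class, without a test. The G-box was present in 5 of 23 synthesis windows (21.7%) and 1 of 43 esterase windows (2.33%), beside 6.49% of the 27443 windows of all protein-coding genes with 250 bases. The genes were GATL8, GATL3, GAUT7, GAUT3 and GAUT6, and the esterase PME44. GATL8, GATL3 and PME44 fell, and the 3 GAUT genes did not pass. The W-box was present in 6 synthesis windows (26.1%) and 7 esterase windows (16.3%), beside 28.4% of all. No window of either class held the GCC-box, beside 1.87% of all, and the TATA box was in 60.9% of synthesis and 51.2% of esterase windows, beside 47.3% of all. A match is a run of letters and not a known binding site.

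Genes acting before and after these enzymes were taken from lists of the pectin pathway. Of 35 tested genes of these lists 3 rose and 4 fell, or 8.57% and 11.4%, beside 14.1% and 8.76% of all genes. Without WT replicate 1 the fit gave 1 higher and 0 lower, without WT replicate 2 it gave 1 and 1, without fer-4 replicate 1 it gave 3 and 3, and without fer-4 replicate 2 it gave 1 and 3. The largest change was in PGIP2 (AT5G06870), which encodes an inhibitor of fungal polygalacturonases. PGIP2 stood at 65.9 and 97.8 FPKM in fer-4 against 19.9 and 19.9 FPKM in WT, a fer-4 mean of 4.11 times the WT mean (1.96 ± 0.18 SE, limma, adjusted p = 0.00145), and it passed under all 12 alternatives. PGIP1, its neighbour, also rose, with 159 and 209 FPKM in fer-4 against 118 and 101 FPKM in WT (0.73 ± 0.16, adjusted p = 0.0225). The rise of PGX1, a polygalacturonase of expanding cells, was 0.82 ± 0.16, with 3.65 and 4.88 FPKM in fer-4 against 1.84 and 2.095 FPKM in WT (adjusted p = 0.0182).

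The 4 falls were in genes that supply or decorate the polymer. UGD2, a UDP-glucose dehydrogenase at the head of UDP-glucuronic acid supply, stood at 89.4 and 96.1 FPKM in fer-4 against 134 and 134 FPKM in WT (-0.53 ± 0.09 SE, limma, adjusted p = 0.00993). It was 1 of 14 nucleotide sugar genes, and no other member of that list passed. CGR3, a methyltransferase that adds the methyl groups PME enzymes remove, stood at 39.0 and 38.2 FPKM in fer-4 against 60.6 and 52.5 FPKM in WT (-0.53 ± 0.10, adjusted p = 0.0138). The other 3 methyl transfer genes, QUA2, QUA3 and CGR2, did not pass. GALS1 and GALS2, which make the galactan side chains, fell by 0.85 and 0.45 on the log2 scale, with GALS1 at 22.8 and 16.2 FPKM in fer-4 against 39.0 and 32.4 FPKM in WT (adjusted p = 0.0200) and GALS2 at 4.82 and 5.05 FPKM in fer-4 against 7.63 and 6.58 FPKM in WT (adjusted p = 0.0461). None of the 4 genes for the maturation of methylesterases, SBT1.7, SBT6.1, FLY1 and FLY2, passed, and none had an unadjusted p under 0.05.

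All of these calls but PGIP2 were lost when single libraries were left out. Without WT replicate 1 the adjusted p was 0.0845 for PGIP1, 0.116 for PGX1, 0.0745 for UGD2, 0.0870 for CGR3, 0.138 for GALS1 and 0.213 for GALS2 (limma). Without WT replicate 2 PGIP1 (0.154), PGX1 (0.0962), UGD2 (0.0792), GALS1 (0.0889) and GALS2 (0.115) did not pass. Without fer-4 replicate 2 PGIP1 (0.0678), PGX1 (0.0643), CGR3 (0.0556) and GALS2 (0.117) did not pass, and without fer-4 replicate 1 GALS2 (0.131) did not. The lowest values over the alternatives were 0.0126, 0.0145, 0.00701, 0.0108, 0.00374 and 0.0245 for PGIP1, PGX1, UGD2, CGR3, GALS1 and GALS2.

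**Figure D5:**
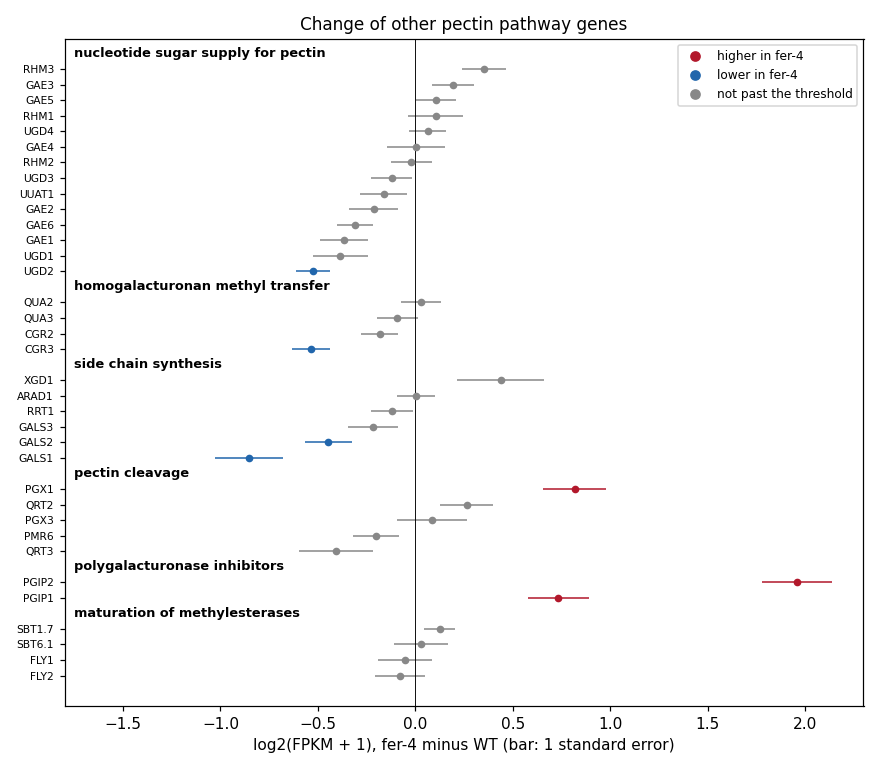
Log2 change in FPKM + 1 (fer-4 minus WT, x axis) of the 35 tested genes of the other pectin lists, with limma's standard error as the bar. PGIP2 lies at 1.96, the highest of the lists, and GALS1 at -0.85, the lowest.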

How the data were processed

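The values are gene-level FPKM as deposited by the authors, 1 file for each library, with the unit named per the file headers. TAIR10 is the build in the submitters' processing notes, which also list StringTie 1.3.3, HISAT2 2.0.5 and CASAVA without roles or settings. Files list only values above 0, and a missing gene was set to 0. No fragment counts were used, and the depths are estimates from the lowest values of single-transcript genes over 1000 bases.

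Identifiers were matched to RefSeq TAIR10.1 (24039 of 24252), which gave names, classes, coordinates, coding sequences and upstream windows. Of 20538 genes with a locus of their own, 97.9% had both ends within 1000 bases of the annotation and all lay on the same chromosome. Coordinates are those of TAIR10.1.

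Log2(FPKM + 1) was fitted with limma-trend (limma 3.58.1, R 4.3.3) over all genes averaging 0.5 FPKM or more, 2 fer-4 against 2 WT libraries, without covariates. P-values are two-sided and adjusted by Benjamini-Hochberg over all genes tested. The pseudocount of 1 understates changes of low genes. Errors are limma's standard errors. Coding identity was computed with Biopython 1.88 by global alignment, per base of the shorter sequence. Python 3.11.15, pandas 2.3.3 and matplotlib 3.10.9 were used.

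Named genes are, in each family, all past the threshold (or the 4 largest rises and falls where more than 8 pass), the 3 with the highest mean, those next to the 0.5 FPKM limit, and called genes of the other lists. Further genes are background on known members or are said to be chosen by value. The members and lists were chosen with earlier results of these data known. Some upstream sequences are not reported here. Of the 69 members used, 18 share a file locus or overlap an annotated gene. The 12 alternatives were a pseudocount of 0.1 or 0.5, a mean of at least 1 FPKM, no filter, quantile normalization, median of ratios scaling, no trend, a replicate block, and leaving out each library.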

Additional observations from a re-analysis of the deposited data

How the results depend on the processing

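Of the 19 called pectin genes, 5 passed in all 12 alternatives, and all 19 kept their sign in each. The number still called was 19 with a pseudocount of 0.5 and with median of ratios scaling, 18 with a mean of at least 1 FPKM and with quantile normalization, 17 with a pseudocount of 0.1 and without a trend, 15 with a replicate block and 14 without a filter. Leaving out 1 library at a time gave 0 to 6 higher and 5 to 9 lower pectin genes (4 and 15 with all libraries), 0 to 2 higher synthesis genes (2), 0 to 4 higher and 3 to 7 lower esterases (2 and 11), and 1084 to 2507 higher and 375 to 1460 lower genes overall. These fits assume that the lone sample of a genotype varies like the pair of the other. Higher esterases numbered 1 with a pseudocount of 0.1, without a filter, with quantile normalization and without a trend. With the replicate block 5 pectin genes were higher and 12 lower. PME18 (adjusted p = 0.0426) and PAE4 passed there and not in the fit reported. The labels tie no replicate number to a shared plate or batch, so the block was not used in that fit. The differences between replicates 1 and 2 of the genotypes correlated at r = -0.21 across 20284 genes, which are not independent. A crossed block, added after seeing the data, gave 9 higher and 16 lower pectin genes, of them 7 and 12 esterases. The calls over all genes under either block are not given here, so these counts have no background. Counting the 2 proteasome genes as esterases, also added later, changed no number of calls. Class medians and sums moved by less than the spread between replicates in every alternative run. With 2 libraries a group, leaving out 1 can hardly move a class value by more than that spread. The runs with a library left out therefore do not test this. Of 274 alternative values of single named genes 31 lost their call, 5 gained one and none changed sign among the called. With 2 libraries a group, small changes were not detectable.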

Other observations

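Many short genes whose annotation names a pectin methylesterase inhibitor carry no PMEI number in the files and so fall outside the names used above. After the files were seen, 39 further listed genes with coding sequences under 1000 bases were collected. Their annotated products contain the words pectin methylesterase inhibitor. That wording can name a superfamily shared with invertase inhibitors, so a gene of the set need not inhibit methylesterases. Of the 39, 21 averaged 0.5 FPKM or more. Of these, 4 rose and 4 fell in fer-4 (19.05% each, beside 14.1% and 8.76% of all genes; limma, adjusted p under 0.05). AT5G62360 had the largest rise of the 21 on the log2(FPKM + 1) scale, with 49.0 and 45.6 FPKM in fer-4 against 16.3 and 10.1 FPKM in WT (1.80 ± 0.21 SE, limma, adjusted p = 0.00284), and it passed under all 12 alternatives. AT5G62340 rose, with 34.8 and 38.2 FPKM in fer-4 against 25.1 and 17.2 FPKM in WT (0.78 ± 0.17, adjusted p = 0.0261). AT5G62350, the most abundant of the 21, stood at 143 and 138 FPKM in fer-4 against 153 and 157 FPKM in WT and did not pass (adjusted p = 0.301). UNE11 fell, with 11.997 and 15.4 FPKM in fer-4 against 24.6 and 20.9 FPKM in WT (-0.70 ± 0.14, adjusted p = 0.0205). AT1G62760 rose at a low level, with 1.08 and 2.75 FPKM in fer-4 against 0.133 and 0 FPKM in WT, a larger ratio of means than that of AT5G62360. AT1G14890 also rose, and AT4G25260, AT1G23205 and AT2G47670 also fell. Of the 12 alternatives, AT1G14890 lost its call in 9, AT1G23205 in 8, AT4G25260 in 6 and AT2G47670 in 3. AT1G62760 lost its call in 2 of the 11 alternatives that tested it. The AT5G62340 call was lost without fer-4 replicate 1 (0.0517), fer-4 replicate 2 (0.0952) or WT replicate 2 (0.0867), with adjusted p of 0.0202 to 0.0952 over the alternatives. That of UNE11 was lost without fer-4 replicate 1 (0.0523), WT replicate 1 (0.137) or WT replicate 2 (0.0857), with 0.0161 to 0.137 over the alternatives (limma). Without WT replicate 1 there were 2 higher and 0 lower, without WT replicate 2 there were 1 and 0, without fer-4 replicate 1 there were 2 and 2, and without fer-4 replicate 2 there were 2 and 3. The summed level of the 21 was 345 and 352 FPKM in fer-4 against 338 and 321 FPKM in WT.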
